A study of Homo sapiens with 12 samples.

Results

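The sequences described here are reporter variants in which alanine is the last codon before a stop codon. Each variant of the library carries a window of 10 bases, made of 6 random bases, then a stop codon or TGG, then 1 more base. Members have TAA, TAG or TGA at bases 7 to 9, an alanine codon (GCA, GCC, GCG or GCT) at bases 4 to 6 and no stop codon at bases 1 to 3. They number 2635 of the 55109 sequences in both tables together, which is 90.0% of the 2928 windows that this rule allows. The EJC-enhanced table lists 2479 of them, the EJC-independent table lists 2107, and 1951 stand in both. Their controls are 903 EJC-enhanced and 738 EJC-independent sequences with TGG, a tryptophan codon, in place of the stop codon.

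The study asks how the bases around a premature stop codon bear on nonsense-mediated mRNA decay (NMD). Wild-type HEK293T cells, an established human embryonic kidney line, received a library of the EJC-enhanced or the EJC-independent reporter at 1 genomic site by Cre-Lox recombination. The 4 groups are EJC-enhanced cells with an inhibitor of the kinase SMG1 (SMG1i), EJC-enhanced cells with the solvent DMSO, EJC-independent cells with SMG1i, and EJC-independent cells with DMSO. SMG1i was used at 0.5 µM for 24 hours, and each group has 3 replicate libraries, so 12 in all. Whether the replicates are separate cultures, and whether the cells with integrated libraries are clones, is not stated, so spread between libraries may be technical. The tables list reporter variants only, so the identity of the cells could not be checked with marker genes, and no genome position of the integration site is stated.

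Alanine carries a methyl group as its side chain, which makes it the next larger amino acid after glycine, and serine differs from it by a hydroxyl group on that carbon. When a ribosome reaches a stop codon, the finished chain still hangs by its last amino acid on the P-site tRNA, and release factors cut this bond. In NMD, SMG1 phosphorylates the helicase UPF1 on mRNAs whose translation ends too early, and an exon junction complex (EJC) downstream of the stop codon can strengthen the decay. All 4 alanine codons begin with GC, so the amino acid and the bases at positions 4 and 5 cannot be told apart by alanine alone.

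The authors' deposited tables give 1 comparison of SMG1i with DMSO for each variant, without values of single libraries. The response used here is their log2 fold change with its sign turned, so that a positive value is taken as more RNA under SMG1i than under DMSO. The tables do not name the numerator. This direction rests on the stop codon variants, which lie well below 0 as deposited, while TGG variants lie near 0. A floor of 10 on the mean normalized count left 2474 EJC-enhanced and 2094 EJC-independent alanine stop variants. Their median count was 159 in the EJC-enhanced and 248 in the EJC-independent table, and the median deposited standard error of a single response was 0.55 and 0.32 on the log2 scale in the same order of tables. Errors and p-values given below run over sequences measured in the same libraries, which are not replicates of a treatment.

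Windows that show the comparisons in 1 context are printed first, 5′ to 3′, with the last codon in capitals. The first group was chosen by depth alone, and its members share the penultimate proline codon CCC and the following base C. It holds alanine, glycine and serine before TAA, and alanine before the TGG control.
alanine, TAA: cccGCCtaac
glycine, TAA: cccGGCtaac
serine, TAA: cccTCCtaac
alanine, TGG control: cccGCCtggc

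In the authors' deposited EJC-enhanced table, cccGCCtaac had a response of 2.40 with a standard error of 0.31. The authors' deposited EJC-independent table gave it 1.55 with a standard error of 0.055. Its glycine partner cccGGCtaac had 2.25 in the EJC-enhanced and 2.02 in the EJC-independent reporter in the authors' deposited tables. The serine partner cccTCCtaac had 2.21 and 1.74 in the authors' deposited tables, again with the EJC-enhanced value first. In this context alanine therefore had the lowest of the 3 responses in the EJC-independent reporter, and 3 values within 1 standard error of each other in the EJC-enhanced reporter. The control cccGCCtggc had 0.20 in the EJC-enhanced and 0.12 in the EJC-independent reporter in the authors' deposited tables.

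The next group holds the 4 alanine codons before TGA in the same flanks.
alanine codon GCA, TGA: cccGCAtgac
alanine codon GCC, TGA: cccGCCtgac
alanine codon GCG, TGA: cccGCGtgac
alanine codon GCT, TGA: cccGCTtgac

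In the authors' deposited EJC-enhanced table these 4 windows had responses of 2.55 for GCA, 2.30 for GCC, 2.07 for GCG and 2.25 for GCT. The authors' deposited EJC-independent table gave 1.88 for GCA, 1.96 for GCC, 1.85 for GCG and 2.04 for GCT. GCA stood highest in the EJC-enhanced and GCT in the EJC-independent reporter, and GCG stood lowest in both. Deposited standard errors were 0.26 to 0.32 in the EJC-enhanced and 0.050 to 0.13 in the EJC-independent reporter. In the latter, GCG and GCA differed by less than the standard error of either. Over all EJC-independent alanine stop variants, GCG instead had the highest mean of the 4 codons, as given below.

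The size of the response, not its direction, is what the next values measure, since the sign was set from stop variants. As deposited, alanine stop variants had a mean log2 fold change of -2.30 in the EJC-enhanced and -1.70 in the EJC-independent reporter. With the sign turned, their mean response was 2.30 (4.91-fold, 95% interval 2.27 to 2.33) in the EJC-enhanced reporter and 1.70 (3.26-fold, 1.67 to 1.73) in the EJC-independent reporter. Against TGG variants with the same other 7 bases, the EJC-enhanced reporter gave a difference of 2.26 (4.79-fold, 2.21 to 2.31) over 2360 pairs, with 2.30 for stop and 0.043 for TGG variants. The stop variant was higher in 2320 of these pairs. The EJC-independent reporter gave 1.67 (3.18-fold, 1.62 to 1.72) over 1783 pairs, with 1.70 for stop and 0.032 for TGG variants, and the stop variant was higher in 1745. The matched difference was 2.23 for glycine, 2.26 for serine and 2.26 for all codons other than alanine in the EJC-enhanced reporter. It was 2.08 for glycine, 1.83 for serine and 1.73 for all others in the EJC-independent reporter, so the value of alanine lay below each of these there.

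Most members passed the authors' own test. In the authors' deposited EJC-enhanced table, 2136 of the 2459 alanine stop variants with an adjusted p passed at a threshold of 0.05 with a fold change below 0 as deposited (86.9%), against a background of 86.1% over all stop variants, and 0 passed above 0 (background 0.00291%). In the authors' deposited EJC-independent table, 1782 of 2094 passed below 0 (85.1%, background 84.9%) and 0 above 0 (background 0.0104%). Below 0 as deposited is read here as higher under SMG1i, which is the assumed direction and not a result. These shares are near the background, and they followed depth. With a count under 100, the authors' deposited tables call 70.5% of EJC-enhanced and 53.6% of EJC-independent alanine stop variants, beside 69.98% and 53.4% of all stop variants at that depth. With a count of 500 or more, the authors' deposited tables call 354 of 358 EJC-enhanced and 701 of 701 EJC-independent members, beside 99.2% and 100% of all stop variants. Among alanine TGG controls, the authors' deposited EJC-enhanced table lists 22 below 0 (background 2.76%) and 10 above 0 (background 1.38%) of 899. The authors' deposited EJC-independent table lists 51 below 0 (background 4.09%) and 23 above 0 (background 4.03%) of 734.

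Single members spread widely, and each carries a large error of its own. Responses ran between -1.56 and 6.06 in the EJC-enhanced reporter, with an SD of 0.74, beside a root mean square deposited standard error of 0.65. In the EJC-independent reporter they ran between -1.23 and 5.12, with an SD of 0.59, beside 0.52. After subtraction of the squared standard errors, an SD of 0.35 remained in the EJC-enhanced and 0.29 in the EJC-independent reporter. At a count of 500 or more the SD was 0.38 over 358 EJC-enhanced and 0.27 over 701 EJC-independent members.

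Alanine stood in the middle of the amino acids. A linear fit over all stop variants of a reporter, with the last codon, penultimate codon, stop codon and following base as terms, gave alanine minus the mean of the others as 0.012 in the EJC-enhanced reporter (-0.019 to 0.043, Benjamini-Hochberg adjusted Wald p 0.713). It ranked place 7 of 20 from the top, between tyrosine and leucine. In the EJC-independent reporter the difference was -0.018 (-0.044 to 0.0082, adjusted Wald p 0.239), place 9 of 20, between valine and lysine. Alanine was thus not called in either reporter, where the test called 15.0% of the 20 amino acids in the EJC-enhanced and 70.0% in the EJC-independent reporter. With matched TGG values subtracted, the EJC-independent value was -0.061 and passed (adjusted Wald p 0.0417). In the TGG arm, alanine minus the others was 0.0077 in the EJC-enhanced and 0.038 in the EJC-independent reporter, and neither passed (adjusted Wald p 0.825 and 0.341).

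Set against single amino acids, alanine differed from none of the other 19 in the EJC-enhanced reporter at the adjusted threshold (0 of 19, background 3.16%, 2 of 19 at an unadjusted Wald p under 0.05, arginine with 0.06 and aspartate with -0.06). In the EJC-independent reporter 13 of 19 pairs passed (background 77.9%), with alanine higher in 8 and lower in 5. It was higher than tyrosine (0.29), phenylalanine (0.23) and histidine (0.22). It was also higher than glutamine (0.20), methionine (0.17), cysteine (0.17), asparagine (0.16) and leucine (0.09). It was lower than glycine (-0.42), threonine (-0.37), aspartate (-0.10), serine (-0.08) and proline (-0.06). Arginine (-0.03), glutamate (-0.03), isoleucine (0.04), lysine (0.0037), tryptophan (0.03) and valine (-0.02) did not pass.

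Glycine, which has no side chain beyond a hydrogen, was higher than alanine in the EJC-independent reporter and was not called different from it in the EJC-enhanced reporter. Both averaged 2.30 in the EJC-enhanced reporter (1798 glycine variants), with a fitted difference of 0.0026 (-0.046 to 0.051, adjusted Wald p 0.954). The EJC-independent table lists 44.4% of the possible glycine windows, beside 72.0% for alanine, with median counts of 129 and 248 in that order. In the EJC-independent reporter alanine averaged 1.70 and glycine 2.13 (1292 variants), and the fitted difference was -0.42 (-0.47 to -0.37, adjusted Wald p 3.42e-66 over 190 pairs of amino acids). Between the reporters this contrast differed by 0.43 (0.36 to 0.49, adjusted Wald p 1.24e-33, background 67.9%). In the TGG arm, the interval of alanine minus glycine ran between -0.099 and 0.028 in the EJC-enhanced and between -0.067 and 0.066 in the EJC-independent reporter.

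Alanine and glycine codons differ at 1 base, which allowed pairs that are otherwise the same. Counted from 1 at the 5′ end of the window, this change is C5G, with the alanine base first. The EJC-enhanced reporter gave, over 1678 pairs, a difference of -0.0048 (-0.055 to 0.045), with alanine higher in 846. The EJC-independent reporter gave, over 1127 such pairs, 1.70 for alanine and 2.13 for glycine, a difference of -0.43 (-0.48 to -0.38), with alanine higher in 270 pairs. By the third base of the codon the difference was -0.41 for A, -0.47 for C, -0.40 for G and -0.40 for T, so it was much the same in each of the 4 codon pairs. The 449 TGG pairs of the EJC-independent reporter gave 0.0068 (-0.059 to 0.073).

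Serine, with a hydroxyl group, lay closer to alanine. Alanine averaged 2.30 in the EJC-enhanced reporter and serine 2.27 (3670 variants), and the difference of 0.03 did not pass (-0.0067 to 0.071, adjusted Wald p 0.307). With inverse variance weights it was 0.037 and passed (adjusted Wald p 0.0404). Alanine averaged 1.70 in the EJC-independent reporter and serine 1.80 (3256 variants), with a fitted difference of -0.08 (-0.11 to -0.05, adjusted Wald p 1.57e-06). With matched TGG values subtracted it was -0.16. Between the reporters this contrast differed by 0.11 (0.06 to 0.16, adjusted Wald p 2.57e-05).

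Serine has a pair of codon boxes. Alanine minus the serine codons that begin with TC was -0.10 (-0.13 to -0.07) in the EJC-independent reporter. Alanine minus the serine codons AGC and AGT was -0.04 (-0.096 to 0.0087), an interval that includes 0, while the TGG arm gave 0.096 (0.012 to 0.18) for the same codons. In pairs that differ by G4T alone, the EJC-independent reporter gave -0.08 (-0.12 to -0.05) over 1920 pairs, with alanine higher in 781. By the third base the difference was -0.06 for A, -0.11 for C, 0.0034 for G and -0.14 for T. The interval excluded 0 for C and for T. For GCG against TCG it ran between -0.07 and 0.08, with 1.80 for both codons.

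The other single-base neighbours of alanine at positions 4 and 5 were threonine (G4A), proline (G4C), aspartate and glutamate (C5A) and valine (C5T). In the EJC-enhanced reporter the 6 kinds of single-base pair had differences between -0.03 and 0.03, and all 6 intervals included 0. Alanine minus the partner in the EJC-independent reporter was -0.38 for threonine (-0.42 to -0.34, alanine higher in 445 of 1728 pairs). It was -0.06 for proline, -0.09 for aspartate and glutamate together and -0.05 for valine, and none of these intervals included 0. The corresponding TGG pairs gave intervals that included 0 in both reporters.

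The 4 alanine codons had means between 2.29 and 2.30 in the EJC-enhanced reporter, where GCA had 2.30 (2.24 to 2.37, 572 variants), GCC 2.29 (2.25 to 2.34, 694 variants), GCG 2.29 (2.21 to 2.38, 551 variants) and GCT 2.29 (2.24 to 2.35, 657 variants). None of their 6 pairs passed (0 of 6, background 2.30%, 0 at an unadjusted Wald p under 0.05). In the EJC-independent reporter GCA had 1.67 (1.60 to 1.74, 448 variants), GCC 1.69 (1.65 to 1.74, 638 variants), GCG 1.78 (1.71 to 1.84, 448 variants) and GCT 1.69 (1.63 to 1.74, 560 variants). There 3 of 6 pairs passed (background 25.3%), and all 3 involve GCG. GCA minus GCG was -0.11 (-0.19 to -0.03, adjusted Wald p 0.035), GCC minus GCG -0.09 (-0.16 to -0.03, adjusted Wald p 0.0333), and GCG minus GCT 0.10 (0.02 to 0.17, adjusted Wald p 0.0369). The TGG partners of GCG variants also lay highest, at 0.092 against -0.0017 for GCA, 0.042 for GCC and -0.00077 for GCT. After subtraction of these partners, with inverse variance weights or with plain means, 0 of the 6 pairs passed, and the difference between the reporters passed in 0 of the 6 (adjusted Wald p 0.535 or more, background 2.30%, 0 at an unadjusted p under 0.05).

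By stop codon, TGA was called higher than the other stop codons in the EJC-independent reporter. In the EJC-enhanced reporter no called difference was found between stop codons behind alanine, with means of 2.30 for TAA, 2.29 for TAG and 2.29 for TGA. None of the 3 pairs passed (0 of 3, background 0%, 0 at an unadjusted Wald p under 0.05). TGA minus TAG was 0.00093, with an interval of -0.07 to 0.07. In the EJC-independent reporter TGA was highest. Alanine variants averaged 1.66 with TAA (1.62 to 1.71, 719 variants), 1.61 with TAG (1.57 to 1.65, 703 variants) and 1.84 with TGA (1.79 to 1.89, 672 variants). TGA exceeded TAG by 0.23 (0.17 to 0.29, adjusted Wald p 5.5e-13) and TAA by 0.18 (0.12 to 0.24, adjusted Wald p 1.19e-08), so 2 of 3 pairs passed (background 68.3%). TAG minus TAA was -0.05 and did not pass (-0.11 to 0.0075, adjusted Wald p 0.116). The same order held within GCC, where TGA had 1.85, TAA 1.65 and TAG 1.58, and within GCG and GCT, while for GCA the order was TGA 1.80, TAG 1.63 and TAA 1.57. None of the 3 differences was called different from those behind the other amino acids (adjusted Wald p 0.849 to 0.921, background 1.67%).

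The contrasts of TGA with TAG and with TAA differed between the reporters (2 of 3 pairs, background 31.7%), and 0 of 3 did so relative to the other last amino acids (background 0%, 0 at an unadjusted Wald p under 0.05). Set beside alanine in the EJC-independent reporter, glycine averaged 2.09 with TAA, 2.04 with TAG and 2.26 with TGA, and serine 1.77 with TAA, 1.68 with TAG and 1.94 with TGA. Alanine thus had the lowest value of these 3 amino acids before each stop codon, and TGA was highest for each of them.

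The base after the stop codon made no called difference behind alanine. The EJC-enhanced means were 2.30 for A, 2.26 for C, 2.30 for G and 2.32 for T, with 0 of 6 pairs called (background 0%, 0 at an unadjusted Wald p under 0.05). The EJC-independent means were 1.75 for A, 1.69 for C, 1.71 for G and 1.68 for T, with 0 of 6 called (background 6.67%). Here A minus C was 0.07 (0.0031 to 0.14), the 1 pair with an unadjusted Wald p under 0.05 (0.0407, adjusted 0.188). Split further by stop codon, the EJC-enhanced means ran between 2.23 for TAG followed by C (231 variants, 2.14 to 2.32) and 2.36 for TAA followed by T (214 variants, 2.27 to 2.46). Those of the EJC-independent reporter ran between 1.56 for TAG followed by A (149 variants, 1.47 to 1.64) and 1.94 for TGA followed by A (141 variants, 1.82 to 2.05).

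The next contrasts concern the amino acid ahead of alanine, the penultimate residue of the chain. In the EJC-enhanced reporter 0 of 20 penultimate amino acids passed before alanine (background 9.75%, 4 at an unadjusted Wald p under 0.05). The 3 highest by effect were tyrosine with a mean of 2.45 (88 variants), leucine with 2.38 (265 variants) and histidine with 2.37 (92 variants). The 3 lowest were tryptophan with 2.03 (38 variants), lysine with 2.06 (48 variants) and glutamate with 2.17 (57 variants). Median counts were 107 for tryptophan, 50.2 for lysine and 51.8 for glutamate, beside 110 for tyrosine, 220.04 for leucine and 253 for histidine, and the part of depth in these means was not tested. Glycine ahead of alanine had 2.28 here, an effect of 0.00005 with an interval of -0.13 to 0.13. Between the reporters the effect differed for 6 of 20 penultimate amino acids (background 12.5%), and relative to the other last amino acids for 0 of 20 (background 4.25%, 2 at an unadjusted Wald p under 0.05). In the EJC-enhanced reporter itself, 0 of the 20 were called different from the same residue ahead of other last amino acids (background 6.25%, 1 at an unadjusted Wald p under 0.05).

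Glycine ahead of alanine had the highest mean in the EJC-independent reporter, and glutamine and tryptophan, both at 1.38, the lowest. Of 20 penultimate amino acids, 4 were higher and 5 lower than the others before alanine, which is 9 of 20 (background 21.2%). With matched TGG values subtracted 4 of 20 passed. Of the 9, proline, arginine and glutamine were among these 4, the other being alanine ahead of alanine, while glycine, valine, tyrosine, tryptophan, serine and asparagine did not pass. Glycine was highest with a mean of 1.99 (93 variants, SD 0.62), an effect of 0.30 against the other penultimate amino acids (0.18 to 0.42, adjusted Wald p 2.03e-05). Valine, a branched residue, had 1.89 (128 variants), an effect of 0.19 (0.07 to 0.31, adjusted Wald p 0.00859; 0.13 with TGG values subtracted). Proline, whose side chain closes onto the backbone, had 1.86 (186 variants), an effect of 0.16 (0.12 to 0.20, adjusted Wald p 1.66e-11). Arginine, a charged residue, had 1.52 (199 variants), an effect of -0.21 (-0.29 to -0.12, adjusted Wald p 4.24e-05), and serine 1.61 (239 variants), an effect of -0.11 (-0.18 to -0.04, adjusted Wald p 0.0134). Median counts were 161 for glycine, 116 for valine and 802 for proline, beside 210 for arginine and 326 for serine. The part of depth in these means was not tested.

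The other 4 called amino acids have 1 or 2 codons and rest on 4 or 8 contexts of the 6 random bases, so that their intervals are likely too narrow and no p is given. Tyrosine had 1.90 (77 variants), an effect of 0.19 (0.10 to 0.29), which was 0.088 with inverse variance weights and 0.039, not called, at a minimum count of 50. Tryptophan had 1.38 (33 variants in 4 contexts), an effect of -0.31 (-0.48 to -0.14), with context means between 1.12 for tggGCA and 1.86 for tggGCG. Inverse variance weights gave -0.16 for it. Glutamine had 1.38 (77 variants in 8 contexts), an effect of -0.32 (-0.48 to -0.17), while its effect in the TGG arm was 0.19 (0.03 to 0.34). It was -0.14 with inverse variance weights and -0.20 at a minimum count of 50. Its context means ran between 1.05 for cagGCA and 1.77 for caaGCC, and 7 of the 8 lay below the alanine mean of 1.70. Asparagine had 1.63 (50 variants), an effect of -0.07 (-0.13 to -0.02), which turned to 0.083 with matched TGG values subtracted. Without clustering of the errors on contexts, 7 of the 9 calls passed, all but asparagine and serine.

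Glycine ahead of alanine also had a larger effect than glycine averaged over the other last amino acids. Its effect before alanine exceeded that before the others by 0.30 (0.17 to 0.43, adjusted Wald p 0.000234), and the corresponding difference for proline was 0.09 (0.04 to 0.14, adjusted Wald p 0.00787). With tryptophan, which rests on 4 contexts (-0.32, -0.51 to -0.14), these made 3 of 20 (background 11.0%), and without clustering only glycine passed. By codon, the windows with glycine ahead of alanine had 2.24 for GGA (18 variants), 2.07 for GGC (34 variants), 1.80 for GGG (19 variants) and 1.80 for GGT (22 variants). The 16 context means ran between 1.45 for ggtGCG (4 variants) and 2.47 for ggaGCA (3 variants). With matched TGG values subtracted, neither glycine value passed, with an effect of 0.15 (adjusted Wald p 0.308) and a difference of 0.20 from the other last amino acids (adjusted Wald p 0.199). In the TGG arm the glycine effect was 0.089 (-0.049 to 0.23). Glycine ahead of glycine averaged 2.30 (49 variants), and glycine ahead of serine 1.94 (171 variants), each above the mean of that last amino acid given above. Codon means of proline ran between 1.82 and 1.93 ahead of alanine and between 2.14 and 2.25 ahead of glycine. Ahead of serine they ran between 1.95 and 2.03, all above the serine mean. Whether either effect differs between alanine and serine or glycine alone was not tested.

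Grouped by class of the penultimate residue, EJC-enhanced means before alanine were 2.28 for glycine, 2.35 for proline, 2.30 for aliphatic, 2.34 for aromatic, 2.18 for acidic, 2.31 for polar and 2.26 for basic residues. The EJC-independent means were 1.99 for glycine, 1.86 for proline, 1.77 for aliphatic, 1.76 for aromatic, 1.72 for acidic, 1.60 for polar and 1.54 for basic residues. Proline stood highest and acidic residues lowest in the EJC-enhanced reporter, while glycine stood highest and basic residues lowest in the EJC-independent reporter. Differences between classes were not tested, and a class can join unlike members. The EJC-independent aromatic class, for example, holds tyrosine with 1.90 and tryptophan with 1.38.

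The extremes among well-covered single members are printed as examples of how far single windows lie from these means. They reach a count of 100, pass the authors' test at 0.05 and were chosen by their response, so their values are a description.
EJC-enhanced, highest: atgGCTtaga
EJC-enhanced, next highest: ccgGCGtaag
EJC-enhanced, lowest: cggGCCtgag
EJC-independent, highest: gttGCCtgag
EJC-independent, next highest: ggcGCGtgag
EJC-independent, lowest: cacGCTtgag

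In the authors' deposited EJC-enhanced table, atgGCTtaga had a response of 5.57 with a standard error of 0.72. The authors' deposited EJC-independent table gave the same window 1.98 with a standard error of 0.17. For ccgGCGtaag the authors' deposited tables have 5.32 in the EJC-enhanced and 1.80 in the EJC-independent reporter, with standard errors of 1.31 and 0.10 in that order. The third, tatGCAtgat, had 4.995 in the EJC-enhanced and 1.75 in the EJC-independent reporter in the authors' deposited tables. All 3 windows that were highest in the EJC-enhanced reporter thus lay much closer to the alanine mean of 1.70 in the EJC-independent reporter. The lowest called EJC-enhanced window, cggGCCtgag, had 0.88 with a standard error of 0.39 in the authors' deposited table, and the next were tcaGCTtgat with 0.997 and gtcGCAtaac with 1.01.

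In the authors' deposited EJC-independent table, gttGCCtgag had 3.98 with a standard error of 0.56. The authors' deposited EJC-enhanced table gave it 3.92 with a standard error of 0.98, at a mean count of only 39.1. The next, ggcGCGtgag, had 3.65 in the EJC-independent and 3.44 in the EJC-enhanced reporter in the authors' deposited tables. Its EJC-enhanced value had a standard error of 0.87 and a mean count of 80.9 in the authors' deposited table. The TGG control of ggcGCGtgag had a response of 1.60 in the authors' deposited EJC-independent table, at a mean count of 41.2. The third, ggaGCCtgac, had 3.34 in the authors' deposited table. At the low end, cacGCTtgag had 0.24 with a standard error of 0.11 and a mean count of 1892 in the authors' deposited EJC-independent table, against 1.59 in that for the EJC-enhanced reporter. The next lowest, tctGCCtgag and ggcGCCtaag, had 0.57 and 0.72 in the authors' deposited EJC-independent table, and 2.19 and 1.48 in that for the EJC-enhanced reporter.

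Some well-covered members did not pass the authors' test. The 3 with the smallest standard errors in the authors' deposited EJC-enhanced table were aagGCGtgac (1.02, adjusted p 0.0667), ggtGCTtagt (1.11, adjusted p 0.0513) and gctGCTtgag (1.13, adjusted p 0.0551). In the authors' deposited EJC-independent table they were tggGCTtagg (0.52, adjusted p 0.09), agtGCTtagc (0.49, adjusted p 0.199) and gggGCCtaag (0.71, adjusted p 0.0667). All 6 had responses above 0 in the assumed direction. So did 99.8% of EJC-enhanced and 99.9% of EJC-independent alanine stop variants with an adjusted p and a count of 100 or more.

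Between the reporters, the level of the response differed. Over 1686 windows with a matched TGG variant in both, stop minus TGG was 2.26 in the EJC-enhanced and 1.67 in the EJC-independent reporter, a difference of 0.59 (0.52 to 0.66), with the EJC-enhanced value higher in 1283. The tables were normalized apart, and this difference uses the TGG variants of each table. Its interval runs over windows and holds no spread between libraries, so the difference was not tested against that spread. Over the 1938 alanine stop windows used in both tables, Pearson's r of the responses was 0.051 and Spearman's rho 0.012, as a description across sequences. With a count of 100 or more in both, over 1239 windows, r was 0.028 and rho -0.00995. The mean counts had a rho of 0.70 over the 1938 windows and 0.63 over the 1239. Over all 26171 stop windows used in both tables, r of the responses was 0.0085 and rho 0.0093. For alanine stop variants the root mean square standard error was 0.65 beside an SD of 0.74 in the EJC-enhanced reporter. It was 0.52 beside 0.59 in the EJC-independent reporter. The part of this error in the low correlations was not tested. Without TGG values, the EJC-enhanced response was higher by 0.625 over the 1938 alanine windows. It was higher by 0.615 over the 26171, so the level difference was not particular to alanine. Alanine minus the other amino acids differed by 0.03 between the reporters (-0.01 to 0.07, adjusted Wald p 0.195, background 65.0%), which did not pass.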

How the data were processed

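Both tables hold 1 row per window, and the labels assign 12 libraries to 4 groups of 3. Per the file headers, the authors deposited for each window a mean normalized count, which is a signal averaged over libraries. Beside it the authors deposited a log2 fold change, the standard error of that value, and the Wald score behind it. The last deposited columns are the p-value and its adjusted form. The submitters' processing notes name DESeq and DESeq2 without a version. The sources used here do not say how reads were trimmed, assigned and counted. Counting depth per library is unknown from these tables, so no test over libraries could be made.

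The log2 fold change as deposited had its sign turned, and windows with a mean count under 10 were left out. The fit, in Python 3.11.15 with numpy 2.4.6, pandas 2.3.3 and scipy 1.17.1, took all stop variants of a reporter whose other codons are sense codons. Its terms were the last codon, penultimate codon, stop codon and following base, with products of the last amino acid and a context term for the splits. Standard errors were clustered on the 6 random bases. Wald tests were two-sided, with Benjamini-Hochberg adjustment over the whole family of contrasts in each reporter. The 2 tables were normalized apart, and differences between reporters were tested on the difference of the estimates, with the reporters taken as independent. The fit was run on simulated data with known effects, where a limit was set on the bias of the estimates. No limit was set there on how often the intervals held the true value. Background percentages are the share called over the whole family. Unfitted amino acid means weight windows equally. Fitted contrasts instead weight the codons of an amino acid equally, and the mean of the others weights each other codon equally. Contrasts relative to other last amino acids weight those amino acids equally. Alternatives were no minimum count, a minimum of 50, inverse variance weights, subtraction of the matched TGG variant, plain means, shared windows, unclustered errors and, added after the data were seen, the larger of both errors.

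The windows and lists were chosen with earlier results of these data known. Named contexts are the alanine codons, stop codons and following bases, the 3 highest and 3 lowest penultimate amino acids by effect, and single windows ranked by response or standard error at a count of 100 or more.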

Additional observations from a re-analysis of the deposited data

Results flagged for a closer look

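Several contrasts among alanine windows differed between the reporters by a Wald test of the difference itself, with Benjamini-Hochberg adjustment over the whole family. The p-values of this section run over sequences and do not measure spread between libraries. Alanine minus glycine was 0.0026 in the EJC-enhanced and -0.42 in the EJC-independent reporter, a difference of 0.43 (adjusted Wald p 1.24e-33). Alanine minus serine was 0.03 in the EJC-enhanced and -0.08 in the EJC-independent reporter, a difference of 0.11 (adjusted Wald p 2.57e-05). For TGA minus TAG the difference was -0.23 (adjusted Wald p 2.35e-05), and for TGA minus TAA it was -0.19 (adjusted Wald p 0.000337).

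The effect of the penultimate amino acid differed for 6 of 20 (background 12.5%). Relative to the same contrasts behind other last amino acids, the difference between reporters was called for 0 of 20 penultimate amino acids (2 at an unadjusted Wald p under 0.05) and 0 of 3 stop codon pairs (0 unadjusted). The penultimate effect was 0.00005 in the EJC-enhanced and 0.30 in the EJC-independent reporter for glycine, a difference of -0.30 (adjusted Wald p 0.0163). For valine it was -0.08 and 0.19 in that order of reporters, a difference of -0.27 (adjusted Wald p 0.0329). The difference was 0.18 for arginine (adjusted Wald p 0.0438) and 0.15 for serine (adjusted Wald p 0.0349). Glutamine differed by 0.32 and histidine by 0.23, each over 8 contexts, for which no p is given.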

How the results depend on the processing

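The matched stop minus TGG difference stayed between 2.26 and 2.29 in the EJC-enhanced and between 1.66 and 1.69 in the EJC-independent reporter, and EJC-independent alanine minus glycine between -0.45 and -0.42. In the EJC-enhanced reporter alanine minus glycine turned sign with inverse variance weights (-0.026), a minimum count of 50 (-0.036), windows in both tables (-0.078) and plain means (-0.0012), never past the threshold. Alanine minus the other amino acids turned to -0.0049 at a minimum of 50 and -0.018 over shared windows there, and its difference between reporters to -0.0018 over shared windows. Inverse variance weights brought EJC-enhanced alanine minus serine past the threshold (0.037, adjusted Wald p 0.0404), 1 following-base pair in the EJC-independent reporter and 2 penultimate amino acids in the EJC-enhanced reporter, where no minimum and plain means called 1 each.

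Subtraction of matched TGG values gave -0.061 for EJC-independent alanine minus the others and 4 penultimate calls instead of 9. It also gave 0 synonymous pairs and GCG minus GCT at -0.0015. Inverse variance weights and plain means likewise gave 0 synonymous pairs. EJC-independent penultimate calls rose to 13 with inverse variance weights, which added alanine (0.14), glutamate (0.097), histidine (-0.21), isoleucine (0.085) and leucine (-0.070) and lost asparagine. A minimum count of 50 added alanine (0.11), histidine (-0.16) and isoleucine (0.14) and lost asparagine and tyrosine. EJC-enhanced TGA minus TAA turned to 0.0044 with matched TGG values subtracted and 0.012 over shared windows. TGA minus TAG turned to -0.012 there with inverse variance weights. Penultimate effects less those of other last amino acids turned to 0.020 for glutamine and -0.016 for valine (inverse variance weights) and -0.025 for tyrosine (minimum of 50). The cause was not tested in any of these. No paired analysis was possible because the tables give no value per library, and for the same reason leaving out a replicate was not run. A median standard error of 0.55 limits single EJC-enhanced windows.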
